A study of Homo sapiens with 12 samples.

Results

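The erythroid microRNAs hsa-miR-451a, hsa-miR-144-3p, hsa-miR-144-5p and hsa-miR-486-5p were followed through small RNA sequencing of MDA-MB-231, a human triple-negative breast cancer cell line, and of the extracellular vesicles (EVs) that its derivatives released. The members were the 4 rows of the deposited count table with these names, of 2588 mature miRNAs in all. The 12 libraries came from 3 lines, each sampled as cells and as EVs with 2 numbered replicates per group. The control line carried the empty vector SHC001, the Rab27a KD line carried a stable lentiviral shRNA against RAB27A (a small GTPase that serves in docking multivesicular bodies at the plasma membrane before vesicle release), and the miR-122 KO line had been edited at hsa-miR-122 by CRISPR-Cas9 with 2 guides. The knockdown rests on 1 shRNA clone, the labels name no independent clone of any line, and they do not say whether an empty vector was also put into the knockout line. Cells grew in DMEM with 10% fetal bovine serum. EVs were pelleted by ultracentrifugation from medium conditioned for 24 h without serum and with 1% bovine serum albumin, and the producing cells were taken at the same time. The labels do not say that the numbered replicates were separate cultures, so every p-value reflects the spread between libraries, which may be technical.

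miR-451a and miR-144 are cut from 1 primary transcript that erythroid precursors switch on under GATA1. The miR-144 hairpin is processed by Drosha and Dicer and can give a 3p and a 5p strand, whereas the miR-451a hairpin is too short for Dicer and is trimmed after a cut by Argonaute 2. miR-486-5p comes from an intron of ANK1, the gene of red cell ankyrin, and is also made in muscle. All are known as abundant in red blood cells, and miR-451a and miR-486-5p are among the most abundant miRNAs of plasma.

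In GRCh38 (GENCODE v29) the first cluster lies on the minus strand of chromosome 17. The MIR451A hairpin spans chr17:28861369-28861440, and MIR144 spans chr17:28861533-28861618, 92 bases away. A further hairpin, MIR4732 (chr17:28861655-28861730), is 36 bases beyond MIR144. All 3 lie in the single annotated exon of the long noncoding RNA AC024267.1 (chr17:28861072-28861966), next to the protein-coding gene ERAL1. MIR451B is annotated over the same bases as MIR451A on the plus strand. The RefSeq sequence table of build GRCh38.p14 matched 2 of the 4 members. They are shown because both strands of the miR-144 hairpin were counted separately, and the 3p strand resembles a miRNA that the cancer cells make. Capitals mark the seed, bases 2 to 8, in the mature sequences, and the 2 mature arms in the hairpin, where they occupy positions 15 to 36 (5p) and 52 to 71 (3p).
miR-144-3p (chr17:28861548-28861567): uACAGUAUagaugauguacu
miR-144-5p (chr17:28861583-28861604): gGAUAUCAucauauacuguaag
MIR144 hairpin: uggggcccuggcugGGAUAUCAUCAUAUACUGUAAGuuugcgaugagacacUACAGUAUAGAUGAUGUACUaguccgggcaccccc
miR-101-3p (MIR101-2 entry, chromosome 9): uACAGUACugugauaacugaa
miR-144-3p and miR-101-3p share their first 7 bases and differ from base 8 on. Of 2370 mature names in the sequence table, miR-101-3p alone shared bases 2 to 7 (ACAGUA) with miR-144-3p, and none shared bases 2 to 8. No other name shared bases 2 to 7 of miR-144-5p (GAUAUC).

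Library totals ran from 3140610 to 11840597 miRNA counts in cells, were 164656 and 170366 in knockdown EVs, and ran from 2387336 to 3754673 in the other EV libraries. Levels are given as CPM, counts per 1000000 miRNA counts of a library, so 1 count is worth 5.87 to 6.07 CPM in knockdown EVs and at most 0.419 CPM in any other library. A count of 0 over both knockdown EV libraries allows a level of up to 8.96 CPM (3 counts). These limits and the intervals below cover counting error only. The knocked-out miR-122-5p had 0 counts in both knockout cell libraries, against 5 and 4 counts in control cells, 39 and 40 in knockdown cells and 790 and 651 in control EVs. It was still counted in knockout EVs, at 4 and 3 counts (1.07 and 0.947 CPM), and had 7 and 5 counts in knockdown EVs. RAB27A mRNA is not measured by this assay. 4 miRNAs that MDA-MB-231 makes abundantly (miR-100-5p, miR-21-5p, miR-221-3p, miR-222-3p) summed to 453900 to 685500 CPM in every library, and 3 epithelial miRNAs (miR-200c-3p, miR-141-3p, miR-205-5p) to 7.18 to 54.7 CPM.

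All 4 erythroid miRNAs stood highest in control EVs. miR-451a, a regulator of red cell maturation, had 11917 and 10324 counts in the control EV libraries (4992 and 3976 CPM), where it ranked 30th and 36th of all miRNAs. In knockdown EVs it had 5 and 10 counts (30.4 and 58.7 CPM), and in knockout EVs 139 and 25 counts (37.0 and 7.89 CPM). The 6 cell libraries held 0 to 14 counts each, or 0 to 1.42 CPM. The control EVs were thus apart from every other library, the knockdown and knockout EVs overlapped each other, and all EV libraries lay above all cell libraries. The order of the group means was control EVs (4484 CPM ± 718, SD, n = 2 here and below), knockdown EVs (44.5 ± 20.0), knockout EVs (22.5 ± 20.6), knockout cells (0.810 ± 0.867), control cells (0.533 ± 0.396) and knockdown cells (0.318 ± 0.450). Neighbours in this order overlapped except control EVs with knockdown EVs and knockout EVs with knockout cells.

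miR-144-3p, the more abundant strand of the miR-144 hairpin in control EVs, showed the same order among the 3 EV groups at a lower level. It had 3808 and 3087 counts in control EVs (1595 and 1189 CPM), 0 and 5 counts in knockdown EVs, and 38 and 5 counts in knockout EVs (10.1 and 1.58 CPM). Control cells had 2 and 1 counts, knockdown cells 1 and 2, and knockout cells 0 and 9. Only the control EVs were apart, since knockdown EV replicate 1 held no count and could not be placed above the cells. The group means were 1392 CPM ± 287 (control EVs), 14.7 ± 20.8 (EVs of the knockdown line), 5.85 ± 6.04 (EVs of the knockout line), 0.477 ± 0.227 (knockdown cells), 0.458 ± 0.647 (knockout cells) and 0.130 ± 0.0555 (control cells). The order of the cell means thus differed from that of miR-451a, on 3 to 9 counts per group.

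miR-144-5p, the opposite strand, had 846 and 661 counts in control EVs (354 and 255 CPM). Knockout EVs held 8 and 1 counts, control cells 3 and 1, and both knockdown EV libraries and the 4 cell libraries of the knockdown and knockout lines 0. At the depth of the knockdown EVs a level of up to 8.96 CPM would have gone unseen.

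miR-486-5p behaved differently in that the cells held it too. It had 6112 and 6934 counts in control EVs (2560 and 2671 CPM), and 3241 and 2844 counts in control cells (274 and 257 CPM). Knockdown EVs had 21 and 22 counts (128 and 129 CPM) and knockout EVs 557 and 405 counts (148 and 128 CPM). Knockdown cells had 305 and 306 counts (96.5 and 97.4 CPM), and knockout cells 1698 and 1559 counts (167 and 158 CPM). In descending order the group means were 2615 CPM ± 78.1 (control EVs), 265 ± 11.8 (control cells), 163 ± 6.0 (knockout cells), 138 ± 14.5 (knockout EVs), 128 ± 1.13 (knockdown EVs) and 97.0 ± 0.635 (knockdown cells). By library values, knockout and knockdown EVs overlapped and the other neighbours did not. Counting error allows more overlap. The counting intervals of knockdown EVs (78.95 to 195.0 and 80.93 to 195.5 CPM) held the values of knockdown cells and knockout cells. Those of knockout EV replicate 1 (136.3 to 161.2 CPM) and knockout cell replicate 2 (150.7 to 166.6 CPM) overlapped too.

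**Figure D1:**
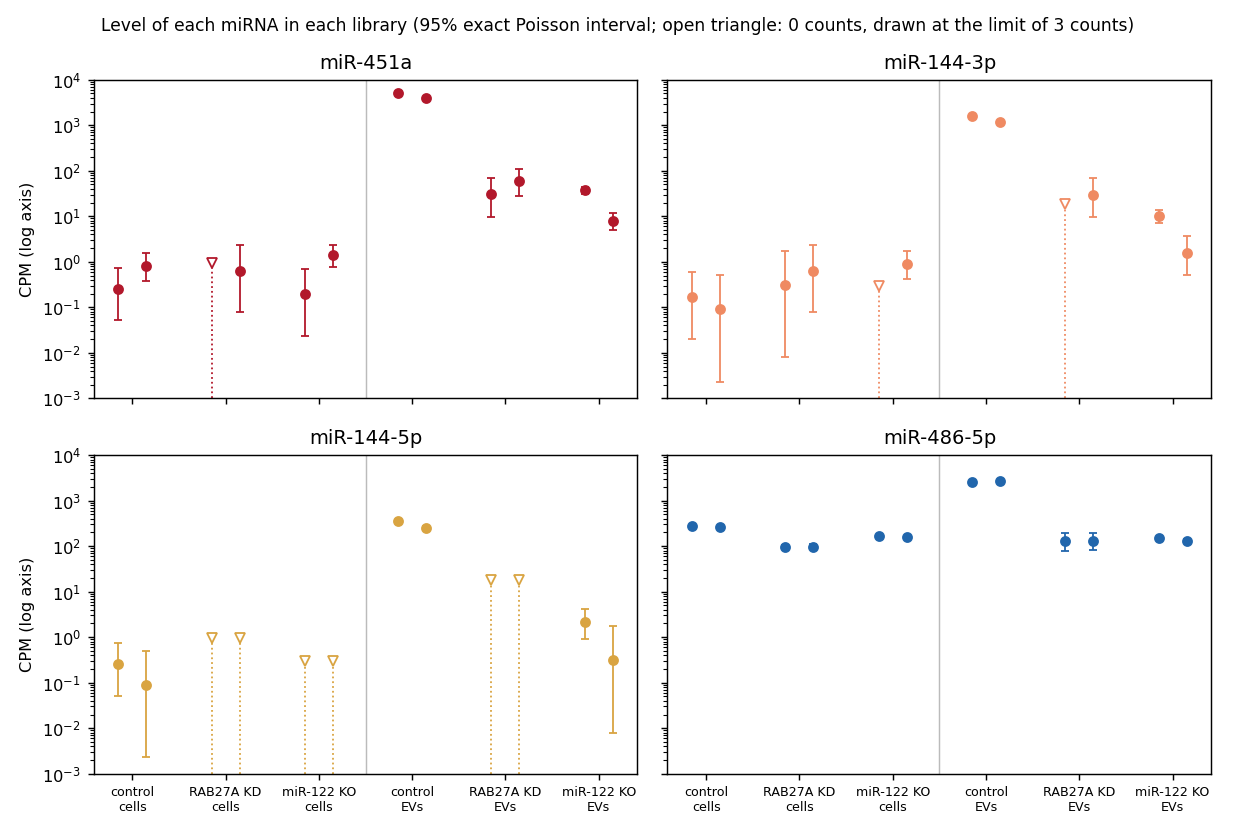
CPM of each miRNA in each of the 12 libraries on a log axis, with 1 point per library, 95% exact Poisson intervals that cover counting error only, and libraries with 0 counts as open triangles at the limit of 3 counts (KD, knockdown; KO, knockout). The 2 control EV points stand above all others in every panel, and miR-486-5p alone has 96.5 CPM or more in every library.

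The 4 members together made up 0.9501% and 0.809% of the miRNA counts of the control EV libraries. Elsewhere their share was 0.00969% to 0.0274%, and miR-486-5p supplied 98.55% to 99.88% of it in the cell libraries. Fewer vesicles of a kind and less of these miRNAs per vesicle cannot be told apart in such bulk libraries. In knockdown EVs miR-451a stood at 0.677% and 1.31% of its control EV mean, and in knockout EVs at 0.826% and 0.176%. miR-486-5p stood higher on that scale, at 4.88% and 4.94% in knockdown EVs and 5.67% and 4.89% in knockout EVs.

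The first comparison asked which miRNAs the vesicles of each line hold above the level of the cells that released them. In the control line, miR-451a, miR-144-3p, miR-144-5p and miR-486-5p were each higher in EVs than in cells. Of the 574 miRNAs tested over the 12 libraries with edgeR's quasi-likelihood test (adjusted p below 0.05, Benjamini-Hochberg), 53.7% were called, and 30.8% were called higher in EVs. The log2 fold change was 12.85 for miR-451a (SE 0.77, edgeR adjusted p = 5.381e-06). From summed counts the ratio of CPM was 8519 (95% counting interval 4876 to 16490, on 12 cell counts). miR-144-3p gave 12.97 (SE 0.75, edgeR adjusted p = 3.64e-06), and its ratio of CPM, on 3 cell counts, was 10560 (3613 to 51240). For miR-144-5p the log2 fold change was 10.43 (SE 0.34, edgeR adjusted p = 1.339e-25), with a ratio of 1732 (675 to 6364) on 4 cell counts. miR-486-5p was higher by 3.16 on the log2 scale (SE 0.13, edgeR adjusted p = 2.422e-27), a 9.85-fold ratio of CPM (9.56 to 10.2). The median log2 fold change of miR-451a, miR-144-3p and miR-486-5p was 12.85, beside 0.02 over all 574 tested miRNAs. miR-144-5p passed the filter on low counts through the control EVs alone, here and in the EV comparisons below. Its call is therefore no support for the others, and it is left out of that median.

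In the knockdown line none of the members was called between EVs and cells, where 19.3% of the 574 miRNAs were called, 7.32% as higher and 12% as lower in EVs. miR-451a had a log2 fold change of 6.56 (SE 2.44, edgeR adjusted p = 0.1296, unadjusted p = 0.03319) on 15 EV counts and 2 cell counts, a CPM ratio of 141 with a counting interval of 32.8 to 1271. It passed the threshold with DESeq2 (log2 fold change 6.75, adjusted p = 6.473e-05) and when only the 4 libraries of that line were fitted (6.51, edgeR adjusted p = 0.00308). miR-144-3p had a log2 fold change of 4.42 (SE 2.76, edgeR adjusted p = 0.3566) on 5 EV counts and 3 cell counts. All 5 came from knockdown EV replicate 2, without which the value was -4.37. It was called after thinning (4.27, edgeR adjusted p = 0.04993) and with the replicate block (4.43, edgeR adjusted p = 0.001243) or the replicate block by line (4.40, edgeR adjusted p = 0.02531). miR-144-5p had no count on either side. miR-486-5p had a log2 fold change of -0.07 (SE 0.24, edgeR adjusted p = 0.9298), and its sign depended on the scaling: with library totals it was 0.40. With edgeR 1 of the 4 members had an unadjusted p below 0.05, and DESeq2 called 1.

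In the knockout line 59.1% of the 574 miRNAs were called between EVs and cells, 33.3% as higher and 25.8% as lower in EVs. miR-451a was higher in EVs by 4.61 on the log2 scale (SE 0.93, edgeR adjusted p = 0.004122), a CPM ratio of 29.6 (17.7 to 53.1). miR-144-3p was higher by 3.50 (SE 1.16, edgeR adjusted p = 0.03588). That call rested on knockout EV replicate 1, which supplied 38 of its 43 EV counts: without it the log2 fold change was 1.69 (edgeR adjusted p = 0.1998). miR-144-5p had 9 counts in EVs and 0 in cells, so it was at least 8.67-fold higher in EVs, and 8 of the 9 counts came from that same library, without which it was not called (edgeR adjusted p = 0.1131). miR-486-5p went the other way and was lower in EVs (log2 fold change -0.45, SE 0.13, edgeR adjusted p = 0.002478). The miR-486-5p call was lost with library totals (-0.24), without knockout cell replicate 1 (-0.23) and without knockout EV replicate 2 (-0.34). With only the libraries compared it was lost too. The median of the 4 log2 fold changes was 4.06 as fitted and 3.31 with miR-144-5p at its bound, beside 0.04 over all tested miRNAs.

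The second comparison set the released vesicles of the RAB27A knockdown line against those of the control line. All 4 members were lower in knockdown than in control EVs, where 46.3% of 488 tested miRNAs were called and 27.5% were called lower. miR-451a fell by 6.76 on the log2 scale (SE 0.80, edgeR adjusted p = 0.001418). Without knockdown EV replicate 2 its log2 fold change was -7.55 and it was not called (edgeR adjusted p = 0.06404), the lone remaining knockdown library being assumed to vary like the other groups. miR-144-3p fell by 6.66 (SE 0.73, edgeR adjusted p = 1.397e-04). Without that same library, which held all of its 5 counts, miR-144-3p was at 0 in the remaining knockdown library and still called. miR-144-5p, at 0 in both knockdown libraries, was at least 33.8-fold lower (edgeR adjusted p = 9.206e-06). miR-486-5p fell by 4.46 (SE 0.18, edgeR adjusted p = 2.347e-09). Without miR-144-5p, which passed the filter through the control EVs alone, the median log2 fold change of the members was -6.66, beside -0.29 over all tested miRNAs.

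Against the same 2 control EV libraries, the knockout EVs were lower in all 4 members as well, where 41.2% of the 488 miRNAs were called and 22.3% were called lower (127 called in place of 201 without control EV replicate 2). miR-451a fell by 7.21 on the log2 scale (SE 0.60, edgeR adjusted p = 3.502e-04) and miR-144-3p fell by 7.43 (SE 0.48, edgeR adjusted p = 5.988e-06). miR-144-5p fell by 7.44 (SE 0.36, edgeR adjusted p = 7.386e-09), and miR-486-5p fell by 3.86 (SE 0.13, edgeR adjusted p = 1.919e-10). Here the median without miR-144-5p was -7.21, beside 0.03 over all tested miRNAs. Since both lines were set against the same control libraries, 2 high control libraries lower both comparisons at once. Leaving out either control EV library left miR-451a, miR-144-3p and miR-486-5p lower in both comparisons. miR-144-5p, which passed the filter through the control EVs alone, is not counted here.

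Set directly against each other, the knockout and knockdown EVs did not separate for the chromosome 17 products. 40.4% of the 488 miRNAs were called in this comparison, 22.7% as higher and 17.6% as lower in knockout EVs. The log2 fold change, knockout over knockdown, was -0.45 for miR-451a (SE 1.36, edgeR adjusted p = 0.8275) and -0.78 for miR-144-3p (SE 1.64, edgeR adjusted p = 0.7568). Single libraries decided the sign and the call. Without knockout EV replicate 1, the library with most of these counts, both were called lower in knockout EVs (-2.02 and -2.71), whereas without knockdown EV replicate 2 both had the opposite sign and were not called (0.17 and 7.0). miR-451a also turned to 0.24 without knockout EV replicate 2. The counting intervals of their CPM ratios, knockdown over knockout, were 1.03 to 3.21 and 0.743 to 6.05. miR-144-5p gave no fold, as its 9 knockout counts lie below the limit that 0 counts allow in the knockdown libraries. miR-486-5p was called higher in knockout EVs (log2 fold change 0.60, SE 0.22, edgeR adjusted p = 0.04331), but with library totals the value was 0.11 and the ratio of its CPM was 1.08 (0.798 to 1.51). This call was lost in 9 of 11 alternatives, among them those without knockout EV replicate 1, knockdown EV replicate 1 and knockdown EV replicate 2.

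**Figure D2:**
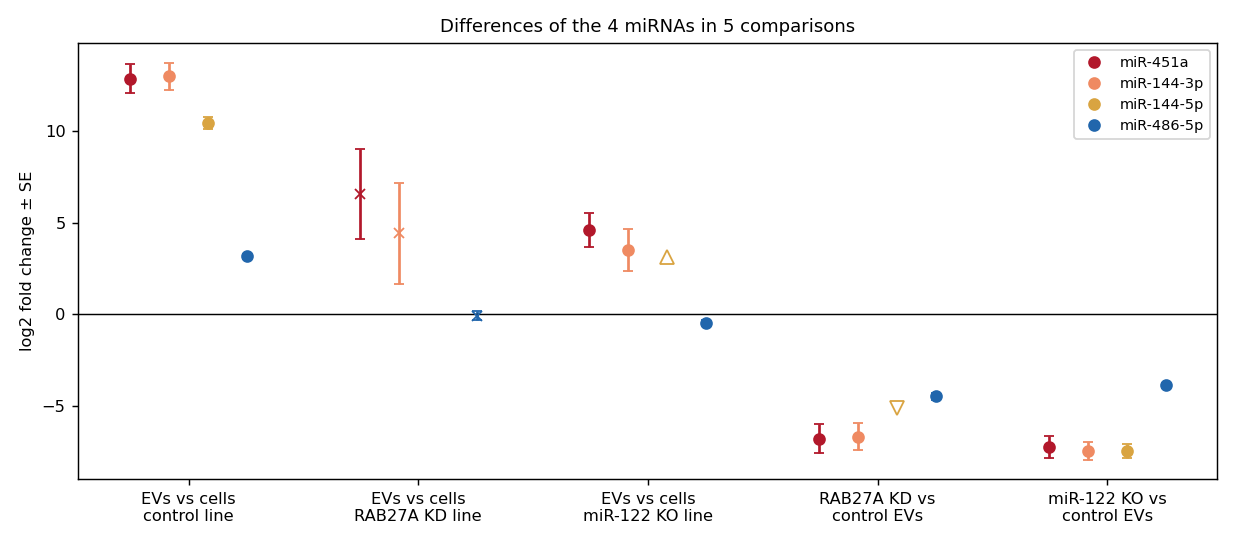
Log2 fold change with its SE for each miRNA in 5 comparisons, with filled circles for calls (edgeR adjusted p below 0.05), crosses for differences not called and open triangles for bounds where 1 group had 0 counts. The 3 chromosome 17 products lie at 10.43 or above in control EVs against control cells, and at -6.66 or below in both EV comparisons except the bound of miR-144-5p in knockdown EVs.

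Inside cells only miR-486-5p passed the filter on low counts, since the 3 chromosome 17 products had 0 to 14 counts per library. miR-486-5p fell by 1.44 on the log2 scale in knockdown cells (SE 0.14, edgeR adjusted p = 4.915e-08), where 53.8% of 613 tested miRNAs were called and 29.5% were called lower (196 and 218 called in place of 330 without knockdown cell replicate 1 and replicate 2). In knockout cells, where 62.3% were called, 34.6% as lower and 27.7% as higher, it fell by 0.36 (SE 0.14, edgeR adjusted p = 0.02801). The latter moved to -0.71 with library totals and was not called with RLE size factors (-0.26), DESeq2 (-0.26), without either control cell library or without knockout cell replicate 2 (-0.21). Between the knockout and knockdown lines it was higher in knockout cells by 1.08 (SE 0.14, edgeR adjusted p = 1.51e-06), where 64.4% of miRNAs were called and 30.7% were called higher. Without the filter, none of the 3 chromosome 17 products was called in any of the 3 cell comparisons (edgeR adjusted p 0.3055 to 1).

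Whether the EV-to-cell difference itself changed between lines was tested as an interaction over all 12 libraries. For miR-486-5p it fell in the knockdown line (interaction -3.23, SE 0.24, edgeR adjusted p = 7.646e-16), where 18.6% of 574 miRNAs were called, 14.3% as lower and 4.36% as higher. With library totals that balance turned: 54 were called lower and 60 higher, against 82 and 25 with TMM factors. It fell in the knockout line too (interaction -3.61, SE 0.18, edgeR adjusted p = 6.591e-23), where 48.3% were called and 23.3% were called lower. miR-451a was called in the knockout line (interaction -8.24, SE 2.19, edgeR adjusted p = 0.01906), as was miR-144-3p (interaction -9.47, SE 2.61, edgeR adjusted p = 0.02116). Both rest on few cell counts, and each call was lost in 5 of 15 alternatives. Without knockout cell replicate 2 neither was called, with interactions of -6.21 and -4.88, and neither was called without the filter on low counts (-8.24 and -9.47, edgeR adjusted p = 0.06207 and 0.0571) or after thinning to the shallowest library (-7.13 and -8.23, edgeR adjusted p = 0.9997 for each). The miR-451a call was also lost without control cell replicate 1 (-7.60) and with only the libraries compared (-8.07), and that of miR-144-3p without control cell replicate 1 (-9.83) or replicate 2 (-9.12). In the knockdown line neither was called (-6.30, SE 5.35, edgeR adjusted p = 0.5461, and -8.55, SE 4.21, edgeR adjusted p = 0.2427). The 15 alternatives called each of these 2 in 5 cases, among them DESeq2 (adjusted p = 0.006395 and 0.004422) and the fits without control EV replicate 1 (-6.25 and -8.46) or replicate 2 (-6.51 and -8.82). miR-144-5p, at 0 in the cells of the knockdown and knockout lines, gave no usable interaction.

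The proportions of the 3 chromosome 17 products were close in control and knockout EVs. miR-451a took 72.6% of their summed counts in control EVs (95% Clopper-Pearson interval 72.1 to 73.1, 30643 counts), miR-144-3p took 22.5% (22.03 to 22.97) and miR-144-5p took 4.92% (4.68 to 5.17). In knockout EVs, on 216 counts, the shares were 75.9% (69.7 to 81.5), 19.9% (14.8 to 25.9) and 4.17% (1.92 to 7.76), each interval holding the control EV value. The ratio of miR-144-3p to miR-144-5p was 4.50 and 4.67 in control EVs and 4.75 and 5.0 in knockout EVs. The knockout ratios rest on 38 over 8 counts and on 5 over 1, and knockout EV replicate 1 supplied 185 of the 216 counts. Knockdown EVs had 20 counts of the 3 products in all, 15 of them miR-451a. In cells, control libraries gave 63.2%, 15.8% and 21.1% on 19 counts, and the interval of the miR-144-5p share (6.05 to 45.6) did not hold its control EV value. Knockout cells gave 64.0%, 36.0% and 0% on 25 counts, and knockdown cells had 5 counts in all. Ligation and sequencing favour some small RNAs over others, so shares between different miRNAs are shares of counts and not of molecules.

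The knockout EV replicates differed for these 3 products together. Replicate 1 was above replicate 2 by a CPM ratio of 4.69 for miR-451a, 6.41 for miR-144-3p and 6.75 for miR-144-5p. The same ratio was 1.16 for miR-486-5p and 0.939 for miR-23a-3p, a miRNA used as a reference because its level changes little when red cells lyse and haemolysis is commonly read from miR-451a against it. In control EVs the ratios of replicate 1 to replicate 2 were 1.255, 1.34 and 1.39 for the 3 products and 0.959 for miR-486-5p. Among cells, knockout replicate 2 held the most of the 3 products, 23 counts, against 2 counts in knockout replicate 1.

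The balance of the 2 arms of miR-486 differed between control EVs, knockout EVs and the cells of the control and knockout lines. miR-486-3p, the less abundant arm, had 47 and 58 counts in control cells, 7 and 4 in knockdown cells, 23 and 41 in knockout cells, 32 and 42 in control EVs, 0 and 2 in knockdown EVs, and 37 and 35 in knockout EVs. The ratio of the 5p to the 3p count was 191 and 165 in control EVs, 38.0 to 76.5 in the 6 cell libraries, and 15.1 and 11.6 in knockout EVs. The control EVs lay above all cells and the knockout EVs below them, with no overlap. The 5p arm thus made 99.4% of miR-486 counts in control EVs (99.3 to 99.6) and 93.0% in knockout EVs (91.3 to 94.5). miR-486-3p, unlike the 5p arm, was not called between knockout and control EVs (log2 fold change -0.13, SE 0.29, edgeR adjusted p = 0.7598). It was not called between knockdown and control EVs either (-1.42, SE 0.90, edgeR adjusted p = 0.2184). There it rests on 2 knockdown counts: its CPM ratio, control over knockdown, was 2.49 (0.665 to 20.9). That interval holds the ratio of the 5p arm, 20.4. A difference between the arms was not tested. The EV-to-cell difference of miR-486-3p was 1.55 in the control line (SE 0.31, edgeR adjusted p = 2.679e-05) and 1.498 in the knockout line (SE 0.33, edgeR adjusted p = 9.085e-05).

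**Figure D3:**
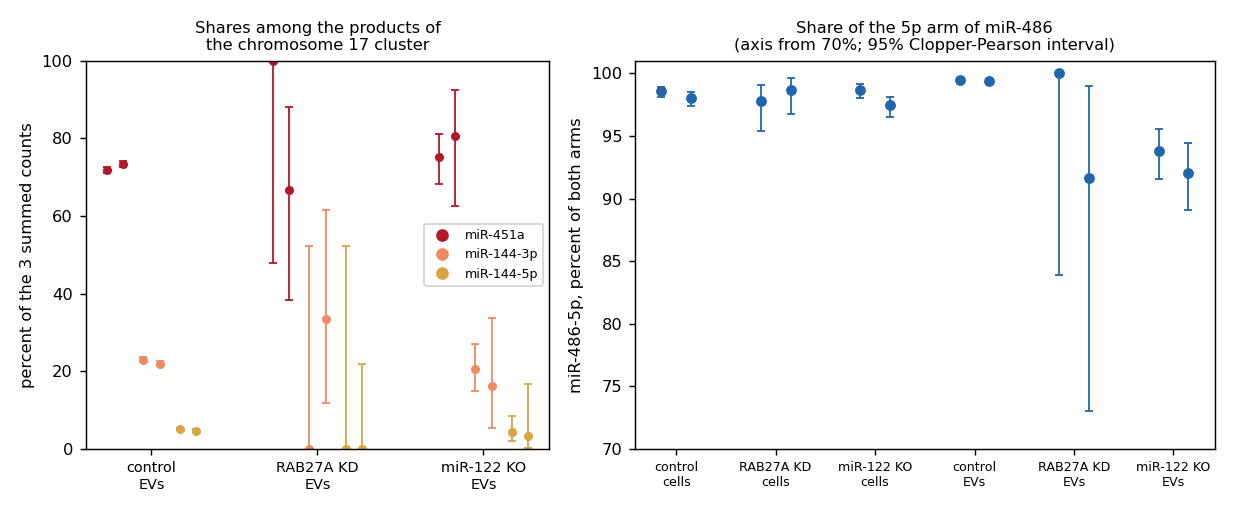
Left, share of miR-451a, miR-144-3p and miR-144-5p in their summed counts in each EV library; right, share of the 5p arm in miR-486 counts in each library on an axis that starts at 70%, both with 95% Clopper-Pearson intervals. Control and knockout EVs show the same order of the 3 products, and the 5p share of miR-486 is 99.4% in control EVs and 93.0% in knockout EVs.

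The neighbours of the chromosome 17 hairpins were not detected. miR-451b, miR-4732-3p and miR-4732-5p each had 0 counts in all 12 libraries, which allows up to 0.602 CPM over the control EVs. miR-101-3p, which shares its first 7 bases with miR-144-3p as printed above, was present throughout, with 1987 CPM ± 87.8 in control EVs, 1344 ± 33.4 in control cells, and 1851 ± 19.3 and 1067 ± 85.5 in EVs of the knockdown and knockout lines. Its group means thus ran from 1067 to 1987 CPM, where those of miR-144-3p ran from 0.130 to 1392 CPM. Whether reads of miR-101-3p and miR-144-3p were confused was not tested.

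Other miRNAs known from red cells were called in both directions. Of 12 that are abundant in red cells but made by many cell types, among them miR-16-5p, miR-92a-3p, miR-25-3p and miR-22-3p, 4 rose and 4 fell in knockdown against control EVs, where 18.9% of all tested miRNAs were called higher and 27.5% lower. In knockout EVs 2 were higher and 2 lower, beside 18.9% and 22.3% of all tested miRNAs. In control EVs against control cells 3 were higher and 5 lower, beside 30.8% and 22.8%. On 12 members these counts are not read as a result about the list. Their summed level was 28930 to 30710 CPM in control EVs and 30910 to 31640 CPM in control cells. miR-16-5p, a red cell miRNA that most cells also make, was not called in any of these 3 comparisons (log2 fold changes -0.11, -0.23 and -0.20, edgeR adjusted p = 0.4674, 0.1068 and 0.1611). miR-484 was lower in knockdown EVs (log2 fold change -1.83, SE 0.20, edgeR adjusted p = 7.054e-06). Of 10 other miRNAs linked to erythroid differentiation or its repression, led by miR-221-3p, miR-222-3p, miR-182-5p and miR-191-5p, 3 rose and 4 fell in knockdown EVs, and 4 rose and 2 fell in knockout EVs, which on 10 members is read no further against the same shares.

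Within a library, miR-451a and miR-486-5p were also set against miR-23a-3p, which frees the value from the library total. The log2 ratio of miR-451a to miR-23a-3p counts was -0.65 and -0.90 in control EVs, -9.14 and -8.02 in knockdown EVs and -7.64 and -9.96 in knockout EVs. In the 5 cell libraries with a miR-451a count it was -14.75 to -11.72. For miR-486-5p it was -1.62 and -1.47 in control EVs and -7.07 to -4.48 in the 10 other libraries. The separation of the control EVs was therefore present without any scaling between libraries. miR-23a-3p itself was called higher in both knockdown and knockout EVs (log2 fold changes 0.97 and 0.37).

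Of 5 marker lists of other cell types, 3 moved with the 4 members and 2 did not. All 5 leukocyte miRNAs (miR-142-3p, miR-142-5p, miR-150-5p, miR-223-3p, miR-223-5p) were lower in knockdown and in knockout EVs than in control EVs and higher in control EVs than in control cells. The same held for both arms of miR-126, known from endothelium and platelets, and for 5 of 5 smooth muscle and fibroblast miRNAs (miR-143-3p, miR-145-5p, miR-199a-3p, miR-199a-5p, miR-214-3p). Of these, miR-150-5p, miR-223-3p, miR-223-5p, miR-145-5p and miR-214-3p passed the filter on low counts through the control EVs alone. Their calls are therefore no support, and the lists are read by their levels. Among all tested miRNAs, 27.5% were called lower in knockdown EVs and 22.3% in knockout EVs. In control EVs against control cells 30.8% were called higher. The leukocyte list summed to 1789 to 2013 CPM in control EVs and 10.4 to 11.5 CPM in control cells. It summed to 12.2 to 35.2 CPM in EVs of the knockdown line and 9.47 to 18.9 CPM in those of the knockout line, with miR-150-5p, miR-223-3p and miR-223-5p at 0 in control cells, knockdown cells and knockdown EVs. The miR-126 arms summed to 2648 to 2966 CPM in control EVs and 110 to 113 CPM in control cells, against 231 to 276 CPM in EVs of the knockdown line and 130 to 136 CPM in those of the knockout line. The smooth muscle and fibroblast list summed to 3183 to 3315 CPM in control EVs and 13.9 to 17.1 CPM in control cells. It reached 27.8 to 40.5 CPM in EVs of the knockout line and 112 to 115 CPM in those of the knockdown line, where 3 of its 5 members were at 0. The liver list (miR-122-5p, miR-192-5p, miR-194-5p) did not follow as a whole: it summed to 683 to 735 CPM in control EVs and 264 to 279 CPM in control cells, against 652 to 802 CPM in EVs of the knockdown line and 384 to 394 CPM in those of the knockout line. In knockdown EVs miR-122-5p was lower, miR-194-5p higher and miR-192-5p not called, and in knockout EVs only miR-122-5p, the edited gene's own product, was called (lower). The 2 epithelial miRNAs tested were not called in either EV comparison (edgeR). Whether material of other cell types contributed to the levels of the erythroid miRNAs was not tested.

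**Figure D4:**
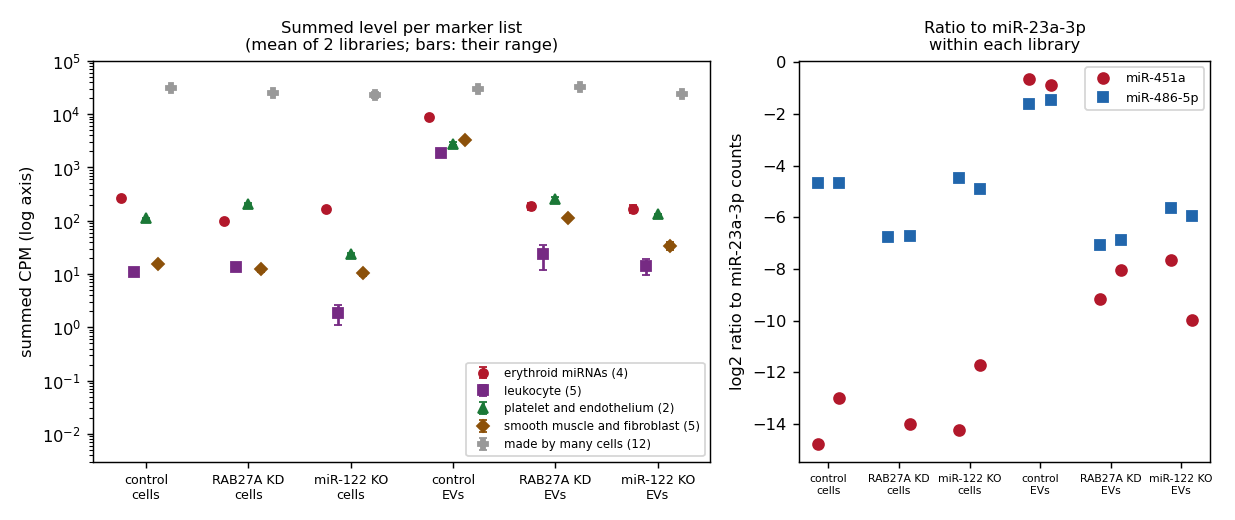
Left, summed CPM of the 4 erythroid miRNAs, of 3 lists of markers of other cell types and of 12 red cell miRNAs made by many cells, as the mean of 2 libraries with their range on a log axis; right, log2 ratio of miR-451a and miR-486-5p counts to miR-23a-3p counts in each library, the 1 library without miR-451a left out. The erythroid and the 3 drawn marker lists are highest in control EVs, whereas the 12 shared miRNAs stay between 20060 and 32440 CPM in all libraries. The liver and epithelial lists, which did not follow, are not drawn.

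The miRNAs whose level followed each member most closely over the 12 libraries were listed by Pearson's r of log2(CPM + 10), among the 637 miRNAs whose counts summed to 50 or more. The points share libraries and depth, and the 2 control EV libraries carry most of the range, so r is a description only. For miR-451a they were miR-143-3p (r = 0.985), miR-379-5p (0.979) and miR-494-3p (0.976). For miR-144-3p they were miR-494-3p (0.996), miR-1468-5p (0.992) and miR-142-5p (0.992), and for miR-144-5p they were miR-381-3p, miR-432-5p and miR-411-3p (0.9999, 0.9999 and 0.9996). For miR-486-5p they were miR-214-3p (0.973), miR-199b-5p (0.972) and miR-145-3p (0.966). miR-494-3p, closest to the mean of the 4 members (0.997), averaged 158 CPM in control EVs and 0.0904 CPM in control cells, and 2.94 and 1.38 CPM in EVs of the knockdown and knockout lines. Over the 10 libraries other than control EVs, the r between miR-451a and miR-486-5p went from 0.900 to -0.238, and that between miR-451a and miR-144-3p from 0.983 to 0.798.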

How the data were processed

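Small RNAs of MDA-MB-231 cells and EVs were sequenced after a library preparation that depends on a 5′ monophosphate, per the labels' protocols. cutadapt, Bowtie and build hg19 are named per the submitters' processing notes, without versions. For the miRNA annotation and reads with several matches, the settings are not stated in the labels. The authors deposited raw counts per mature miRNA, 1 table for the 12 libraries. 869 of the 2588 miRNAs had no count.

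Counts were tested with edgeR 4.0.16 in R 4.3.3 (TMM scaling, filterByExpr, robust quasi-likelihood fit, Benjamini-Hochberg, threshold 0.05). EV and cell libraries were fitted separately (6 each), and EVs against cells and interactions over all 12. The SE is the log2 fold change divided by the square root of F. CPM used library totals. Pooled ratios used summed counts with an exact 95% interval, and bounds used 3 counts over a group. The procedure was tested on simulated data. Alternatives were RLE factors, library totals, DESeq2 1.42.0, no filter, only the libraries compared, a replicate block, thinning to the shallowest library, and leaving out each library. Likeness was repeated with a pseudocount of 1 in place of 10.

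The 4 members were named in every comparison, with the other arms and neighbours of their loci. Of the other lists the text names up to 4 abundant members or the whole marker list. miR-484 and miR-101-3p were named after their values were seen. The members and lists were chosen with earlier results of these data known.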

Additional observations from a re-analysis of the deposited data

Results flagged for a closer look

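Whether the difference between EVs and cells itself differed between lines was read from an interaction test in edgeR's quasi-likelihood fit over all 12 libraries. It called 3 of the 4 members in the knockout line, where 48.3% of 574 tested miRNAs were called and 23.3% were called lower. In the knockdown line it called 1 member, where 18.6% were called and 14.3% were called lower. miR-144-5p gave no usable interaction. For miR-486-5p the EV-to-cell difference was lower in the RAB27A knockdown line than in the control line (interaction -3.23, SE 0.24, edgeR adjusted p = 7.646e-16). In the miR-122 knockout line it was lower too (interaction -3.61, SE 0.18, edgeR adjusted p = 6.591e-23). In the same line the interaction was -8.24 for miR-451a (SE 2.19, edgeR adjusted p = 0.01906) and -9.47 for miR-144-3p (SE 2.61, edgeR adjusted p = 0.02116), on 12 and 3 counts in control cells and 16 and 9 counts in knockout cells. Each of these latter calls was lost in 5 of 15 alternatives (edgeR adjusted p up to 1.0 over the 15), among them no filter on low counts, thinning, and leaving out control cell replicate 1 or knockout cell replicate 2.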

How the results depend on the processing

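For 33 results on single members, 399 alternative values were computed: 333 kept direction and side of the threshold, 36 lost the call, 21 gained one and 9 changed sign. Least stable was miR-486-5p in knockout against knockdown EVs (call lost in 9 of 11), followed by knockout against control cells (lost in 6 of 11). In knockdown EVs against cells miR-486-5p changed sign in 5 of 12, and miR-451a gained a call in 5 of 12. The interactions of miR-451a and miR-144-3p each lost the call in 5 of 15 in the knockout line. In the knockdown line each gained it in 5 of 15. In both EV comparisons with control every member was lower and called under each alternative, except miR-451a in knockdown EVs without knockdown EV replicate 2 (leave-one-out range -7.55 to -6.46). In control EVs against control cells all 4 stayed higher in EVs. miR-144-5p passed the filter through the control EVs alone, so its calls in these comparisons are no support. Library totals in place of TMM factors moved the median log2 fold change of all tested miRNAs by -0.37 in knockout against control EVs, -0.41 in knockout against knockdown EVs, -0.34 and -0.31 in knockout cells against control and knockdown cells, by 0.14, 0.29 and 0.20 in EVs against cells of the control, knockdown and knockout lines, and by 0.33 in the knockdown interaction. With it the share of calls that were higher went from 45.8% to 19.2%, 56.3% to 35.3%, 44.5% to 32.4%, 47.6% to 36.9%, 57.5% to 66.7%, 37.8% to 75.6%, 56.3% to 66.1% and 23.4% to 52.6% in that order. Knockdown against control EVs moved by 0.12 with library totals, and with RLE factors knockout against control EVs moved by -0.10, knockdown against control cells by 0.12, EVs against cells of the knockdown line by 0.10 and the knockout interaction by -0.15.

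miR-486-5p in knockdown EVs against cells was 0.0338 with DESeq2 and RLE factors, 0.0731 with only the libraries compared, 0.40 with library totals and 0.66 thinned. In knockout EVs against cells it was -0.37 with only the libraries compared and -0.24 with library totals, not called in either. Its leave-one-out range there was -0.58 to -0.23. In knockout cells against control cells it was -0.26 with DESeq2 and RLE factors and -0.28 thinned, with a leave-one-out range of -0.61 to -0.21. In knockdown EVs against cells miR-451a was called with DESeq2 (6.75), only the libraries compared (6.51), thinning (5.80), the replicate block (6.56) and the replicate block by line (6.55). miR-144-3p was called there thinned (4.27) and with both blocks (4.43 and 4.40), and its leave-one-out range was -4.37 to 5.21. In knockout EVs against cells the miR-144-3p call was lost with DESeq2 (3.47), no filter (3.15) and thinning (2.38; leave-one-out range 1.69 to 7.87). The miR-144-5p call was lost thinned (2.38; leave-one-out range 3.89 to 6.46). In knockout against knockdown EVs miR-451a turned to 0.24 without knockout EV replicate 2 and to 0.17 without knockdown EV replicate 2, and miR-144-3p to 7.0 without knockdown EV replicate 2. Without knockout EV replicate 1 both were called lower in knockout EVs (-2.02 and -2.71).

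Counts of called miRNAs fell on thinning to 80 of 201 (knockout against control EVs), 128 of 197 (knockout against knockdown EVs), 107 of 308 and 121 of 339 (EVs against cells, control and knockout lines) and, for the interactions, 61 of 107 (knockdown) and 100 of 277 (knockout). Leaving out 1 library gave 127 to 189 calls in knockout against control EVs, the lowest without control EV replicate 2, and 196 to 273 of 330 in knockdown against control cells. Replicates with the same number did not deviate together (correlations -0.05 to 0.08 over 574 miRNAs), so the replicate block rests on a number only; it changed no member call besides those above and that of miR-486-5p in knockout against knockdown EVs (0.60, edgeR adjusted p = 0.07546) and the interactions of miR-451a and miR-144-3p in the knockdown line, which it called (-6.31 and -8.55). Depth limits the knockdown EVs most: miR-144-5p below 8.96 CPM could not be seen there. The lists of closest miRNAs kept 3, 2, 2 and 3 of 3 names for miR-451a, miR-144-3p, miR-144-5p and miR-486-5p with a pseudocount of 1.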
